A study of Mus musculus with 12 samples.

Results

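The 10 genes described here encode secreted cytokines that belong to the senescence-associated secretome: the interleukins and related ligands Il6, Lif, Il11, Il1a, Il1b, Il33 and Tslp, and the colony-stimulating factors Csf1, Csf2 and Csf3. They were listed by name, and all probes whose RefSeq accession maps to them were taken from each array. Of the 10 genes, 9 had a probe, and 5 of those passed the filter for testing among 18429 features tested in all. Lif was not analysed here, because no probe matched it by accession.

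The samples were mouse embryonic fibroblasts, and each was hybridised to 1 single-colour Agilent whole mouse genome array. The 4 groups, with 3 samples each, were irradiated ATM-KO cells, nonirradiated ATM-KO cells, irradiated ATM-WT cells and nonirradiated ATM-WT cells. Irradiated cells received 4.32 Gy, and RNA was collected after 72 h of culture. ATM-KO stands for cells without the kinase ATM, which signals DNA double-strand breaks, and ATM-WT for cells with it. The knockout allele, the passage, the dose rate and the number of embryos behind each line are not stated in the sources used here. The labels do not say that the 3 samples of a group were separate cultures, so every p-value covers no more than the spread between these arrays, which may be technical.

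Cells that stop dividing for good after DNA damage secrete a mixture of cytokines, chemokines and proteases, the senescence-associated secretome. IL-1 signalling, NF-kB and C/EBPbeta are known to drive its cytokine genes, with IL-6 as a core product, and in human fibroblasts ATM is known to be needed for damage-induced IL-6 secretion. IL-6, IL-11 and LIF signal through the shared receptor subunit gp130, IL-1alpha, IL-1beta and IL-33 through receptors of the IL-1 family, TSLP through its own receptor chain together with the IL-7 receptor, and the colony-stimulating factors through receptors on myeloid cells.

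The 250 bases upstream of the annotated starts are shown for Il6 and Il11, the gp130 cytokines whose levels are described first below, and for Csf1 as a cytokine with a smaller irradiation difference. The sequences are from RefSeq (GRCm38.p6), written 5′ to 3′ on the gene's strand and ending just before the start site. Capitals mark letters that match 1 of 3 motifs: the AP-1 motif TGANTCA, the C/EBP motif TTGCNNAA and the NF-kB consensus, each searched on both strands.
Il6 (chr5:30012864-30013113, + strand): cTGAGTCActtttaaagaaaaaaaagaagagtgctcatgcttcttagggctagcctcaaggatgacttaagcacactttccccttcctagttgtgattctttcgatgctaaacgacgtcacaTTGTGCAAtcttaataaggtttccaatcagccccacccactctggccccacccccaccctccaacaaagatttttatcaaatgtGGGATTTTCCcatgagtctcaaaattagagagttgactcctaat
Il11, second start (chr7:4778142-4778391, - strand): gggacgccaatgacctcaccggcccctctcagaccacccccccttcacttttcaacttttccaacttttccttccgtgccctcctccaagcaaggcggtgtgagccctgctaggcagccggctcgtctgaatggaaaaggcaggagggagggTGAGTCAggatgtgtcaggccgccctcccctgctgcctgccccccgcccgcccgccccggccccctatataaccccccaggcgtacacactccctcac
Csf1 (chr3:107760470-107760719, - strand): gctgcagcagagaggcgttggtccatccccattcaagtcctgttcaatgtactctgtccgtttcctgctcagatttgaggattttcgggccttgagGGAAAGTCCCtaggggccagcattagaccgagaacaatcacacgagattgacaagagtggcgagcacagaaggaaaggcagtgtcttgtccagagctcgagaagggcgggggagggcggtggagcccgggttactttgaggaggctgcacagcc
Of 10 genes listed, 8 had such a window (Tslp and Csf3 had none), and with 2 starts each for Il11 and Il33 they had 10 windows. A match to the AP-1 motif was found in 4 of these 10 windows and in 6.75% of all 32851 windows, a match to the C/EBP motif in 3 of 10 and in 9.56% of all, and a match to the NF-kB consensus in 3 of 10 and in 7.25% of all. The AP-1 matches were in Il6, Lif, Il11 and Il1a and the NF-kB matches in Il6, Lif and Csf1. Of these genes, Lif had no probe and Il1a was not well above background on any array. The Il6 window held all 3: TGAGTCA from -249 to -243, TTGTGCAA from -128 to -121 and GGGATTTTCC from -44 to -35, counted from the start site. The second start of Il11 held TGAGTCA from -98 to -92 (its first start, not shown, held no match), and the Csf1 window held an NF-kB match, GGAAAGTCCC, from -154 to -145. In none of these 3 windows did matches of different motifs overlap. These are matches of letters and were not tested as binding sites.

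Each level below is the log2 processed signal minus that of the array's 75th percentile, given for samples 1, 2 and 3 in that order, and differences are log2 values with limma's standard error over n = 3 arrays a group. That percentile lay between 379 and 757 units on the 12 arrays, the share of probes well above background between 55.3% and 64.5%, and saturated spots numbered 0. Precision is limited by the few arrays in a group. Pair counts and statements on overlap describe single genes, and the share of all features with the same pattern is not given. With so few arrays, groups can also fail to overlap by chance. All 11 fibroblast markers, collagens and Thy1 among them, were well above background on all 12 arrays. Atm on its brighter probe lay between -7.50 and -5.43 in ATM-KO samples and between -5.65 and -2.87 in ATM-WT samples. It was well above background on 1 of 3 irradiated and 0 of 3 nonirradiated ATM-KO arrays, against 3 of 3 irradiated and 2 of 3 nonirradiated ATM-WT arrays, so the ATM-KO values are at or near background and no fold is given. The place of the probe relative to the disrupted part is not known here. The p53 target Cdkn1a differed by 0.59 ± 0.313 with irradiation in ATM-KO cells and by 0.98 ± 0.313 in ATM-WT cells, which passed in ATM-WT cells with the replicate block described next (adjusted p = 0.0354) and not without it (adjusted p = 0.401).

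Same-numbered samples deviated from their group means together between irradiated and nonirradiated cells of each genotype, and between irradiated cells of both genotypes, so a second fit took the sample number as a block, called the replicate block below. The match was not complete: another number correlated better for number 2 in ATM-KO cells and for number 3 between irradiated cells of both genotypes. For genotype, the block was 1 effect per sample number over all 12 arrays. It thus included nonirradiated arrays, whose numbers did not pair the genotypes. Number 1 samples stood apart from numbers 2 and 3 in every group for several of the cytokines. On each slide of 4 arrays, positions 2 and 4 carried irradiated and positions 1 and 3 nonirradiated samples, so effects of irradiation and of position on the slide cannot be told apart. Slide 1 held ATM-WT samples 1 and 2, slide 3 held ATM-KO samples 2 and 3, and slide 2 held ATM-KO sample 1 and ATM-WT sample 3, so genotype can be compared within a slide on slide 2 alone.

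After irradiation, all 5 cytokine genes tested had a higher mean than in nonirradiated cells of the same genotype, with log2 differences from 0.38 to 1.44 in ATM-KO cells and from 0.12 to 1.0 in ATM-WT cells. The median difference of the 5 was 0.93 in ATM-KO cells, where the median of all features was -0.05, and 0.56 in ATM-WT cells, where it was -0.02. None of the 5 passed the threshold of adjusted p = 0.05 in limma's test without the block in either genotype. At an unadjusted p under 0.05 there were 2 in ATM-KO cells, where 7.93% of all features were, and 0 in ATM-WT cells, where 6.46% were. With the replicate block, Il6 and Tslp passed in ATM-KO cells and Il6 passed in ATM-WT cells. Of all features, 0.00543% were called for irradiation in ATM-KO cells and 0.445% in ATM-WT cells without the block, and 2.05% and 2.26% with it.

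Il6, the core cytokine of this secretome, was higher in the irradiated sample of all 6 same-numbered pairs. Its level was -0.24, -1.67 and -2.24 in irradiated ATM-KO samples, against -1.68, -3.03 and -3.75 in nonirradiated ATM-KO samples. The groups overlapped, since sample 1 lay well above samples 2 and 3 under both treatments, while the irradiated sample was the higher by 1.36 to 1.51 in every pair. In ATM-WT cells the level was -2.71, -1.11 and -1.14 in irradiated samples, against -4.17, -2.16 and -1.64 in nonirradiated samples. Here sample 1 lay below samples 2 and 3, the opposite of ATM-KO cells, and the irradiated sample was the higher by 0.50 to 1.46. The irradiation difference was 1.44 ± 0.751 in ATM-KO cells (2.70-fold) and 1.0 ± 0.751 in ATM-WT cells (2.0-fold), with limma's adjusted p = 0.698 and 1.0. With the replicate block the same differences had a standard error of 0.210 and passed, with limma's adjusted p = 0.0183 in ATM-KO cells and 0.0475 in ATM-WT cells. Both calls were lost when the number 1 samples were left out of the blocked fit, at 1.43 (adjusted p = 0.110) in ATM-KO cells and 0.77 (adjusted p = 0.161) in ATM-WT cells. That fit called no feature at all for irradiation in ATM-KO cells, and fewer in ATM-WT cells than with all samples. The lost calls are therefore not particular to Il6. The difference of the irradiation effects was 0.43, with a 95% interval from -1.88 to 2.74, and was not called.

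Between genotypes, Il6 differed by 0.27 ± 0.751 after irradiation and by -0.16 ± 0.751 without it, and the 95% intervals ran from -1.36 to 1.91 and from -1.79 to 1.47. These means average number 1 samples that were high in ATM-KO cells and low in ATM-WT cells. Number 1 exceeded the mean of samples 2 and 3 by 1.72 in irradiated and 1.71 in nonirradiated ATM-KO cells, and fell short of it in ATM-WT cells, at -1.59 with and -2.27 without irradiation. Without the number 1 samples of all 4 groups, the genotype difference of Il6 was -0.83 after irradiation (adjusted p = 0.241) and -1.49 without irradiation (adjusted p = 0.0400). In those fits 1049 and 1593 of all features were called, against 38 and 158 with all samples. ATM-KO samples were then on slide 3 alone and ATM-WT samples on slides 1 and 2. Genotype and slide therefore cannot be told apart in those fits.

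**Figure D1:**
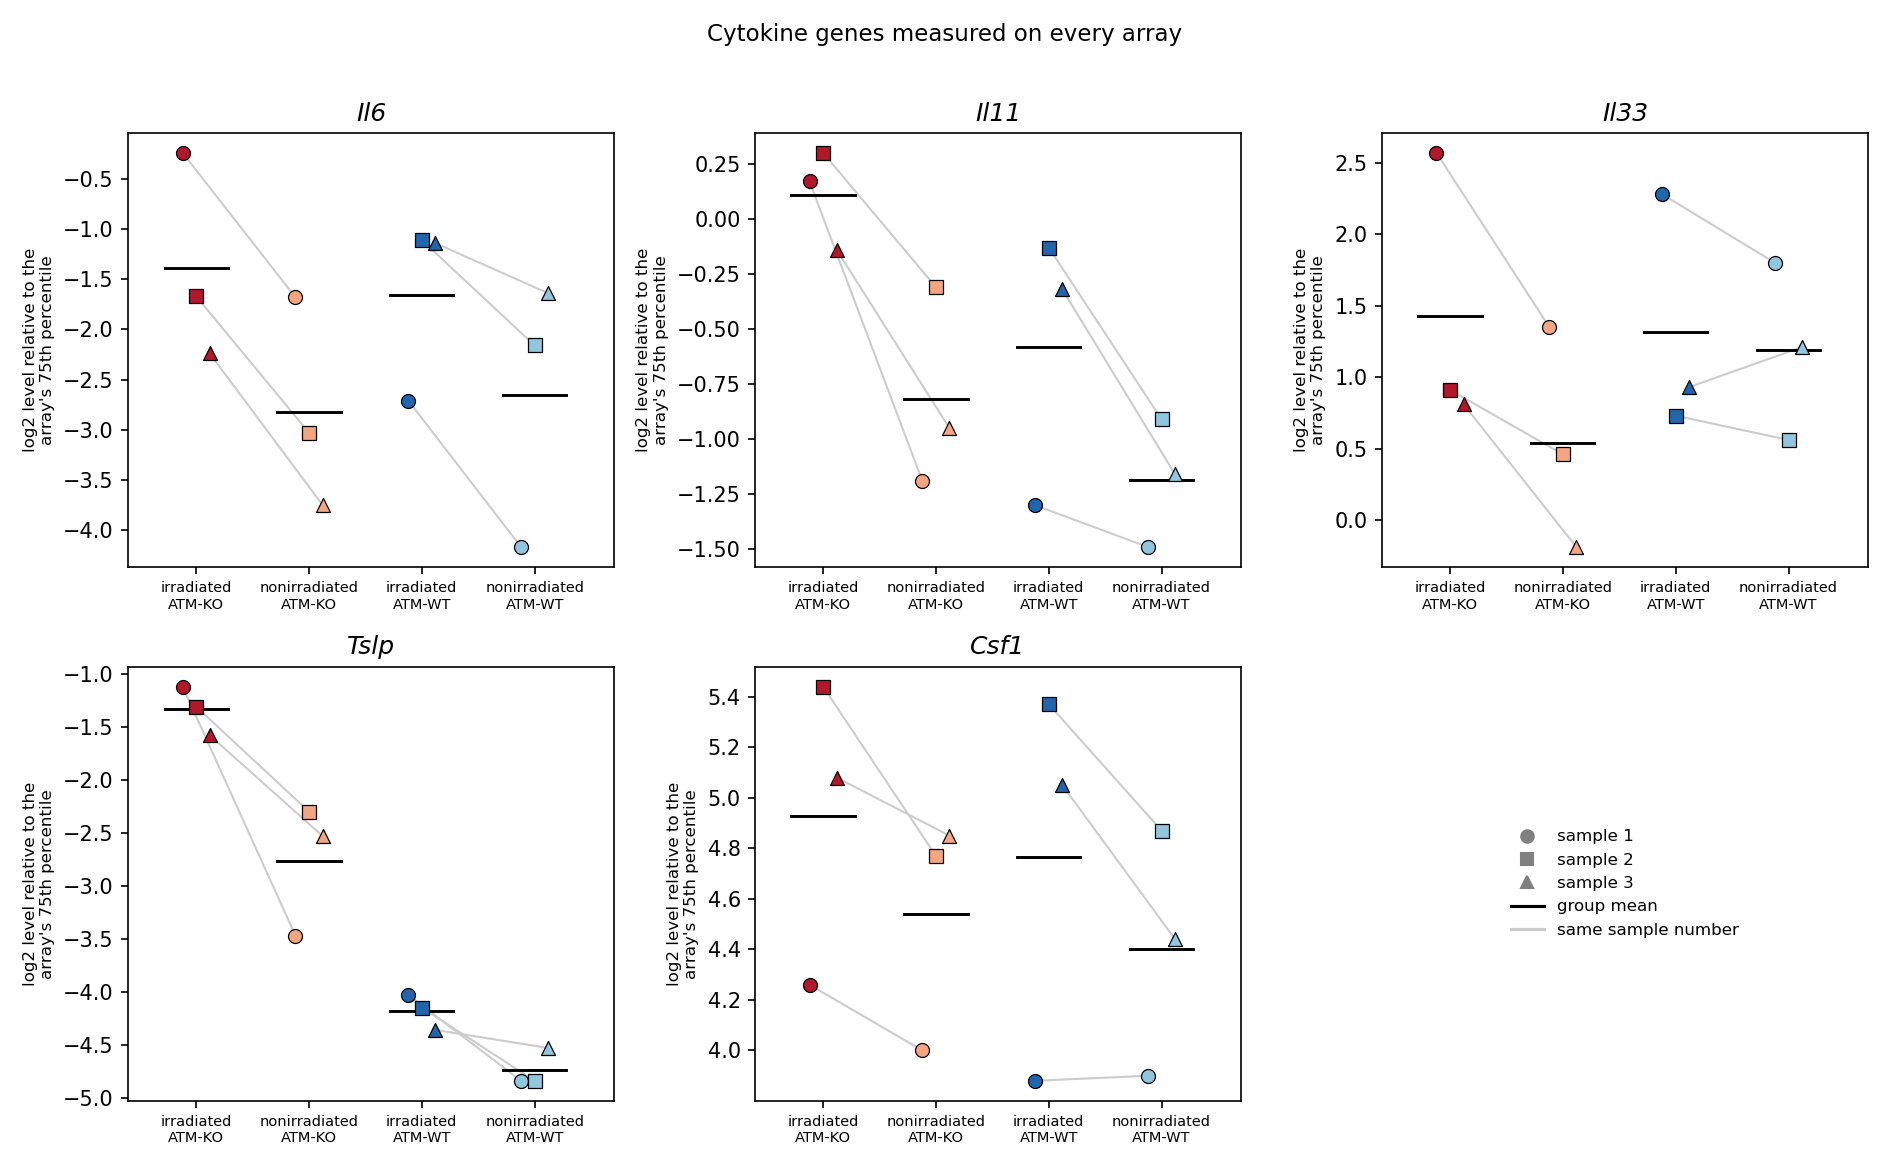
Log2 level relative to the array's 75th percentile (vertical axis of each panel, with its own scale) of the 5 cytokine genes well above background on all 12 arrays, by group, with 1 point per sample, the group mean as a bar and a line joining same-numbered samples of a genotype. The irradiated point is the higher in all 6 pairs for Il6 and Il11, and Tslp lies from -3.47 to -1.12 in ATM-KO samples and from -4.84 to -4.03 in ATM-WT samples.

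Il11, a gp130 cytokine known for its part in fibroblast activation and fibrosis, was higher in the irradiated sample of all 6 pairs, by 0.19 to 1.36. Its level was 0.17, 0.30 and -0.14 in irradiated ATM-KO samples, against -1.19, -0.31 and -0.95 in nonirradiated ATM-KO samples. These groups did not overlap. In ATM-WT cells it was -1.30, -0.13 and -0.32 in irradiated samples, against -1.49, -0.91 and -1.16 in nonirradiated samples, and the groups overlapped through irradiated sample 1. The irradiation difference was 0.93 ± 0.341 in ATM-KO cells (1.90-fold) and 0.60 ± 0.341 in ATM-WT cells (1.52-fold). Neither passed, with limma's adjusted p = 0.483 and 0.973, or 0.0672 and 0.219 with the replicate block. The genotype difference was 0.69 ± 0.341 after irradiation and 0.37 ± 0.341 without, and neither was called.

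Il33 encodes an alarmin of the IL-1 family that is stored in the nucleus and binds the receptor ST2, the product of Il1rl1. Its level was 2.57, 0.91 and 0.81 in irradiated ATM-KO samples, against 1.35, 0.46 and -0.19 in nonirradiated ATM-KO samples. In ATM-WT cells it was 2.28, 0.73 and 0.93 in irradiated samples, against 1.80, 0.56 and 1.21 in nonirradiated samples. Number 1 samples were the highest in all 4 groups, by 0.91 to 1.71 over the mean of samples 2 and 3, so the groups overlapped in both genotypes. The irradiation difference was 0.89 ± 0.572 in ATM-KO cells and 0.12 ± 0.572 in ATM-WT cells (-0.36 without irradiated sample 1 and -0.19 without nonirradiated sample 2), with limma's adjusted p = 0.0798 and 0.886 with the replicate block. The difference of these effects was 0.77 ± 0.809 and was not called (95% interval -0.99 to 2.53). Between genotypes Il33 differed by 0.12 ± 0.572 after irradiation and -0.65 ± 0.572 without.

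Il1a and Il1b, the IL-1 genes whose products start much of the cytokine response of senescent cells, were not well above background on any of the 12 arrays. The values of both Il1a probes and of the Il1b probe lay between -8.47 and -6.65 in all samples, under the lowest level well above background on any array, -6.23. Their order across groups cannot be read from such values, and no fold is given.

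Tslp, which encodes a cytokine related to IL-7 that is best known from epithelial cells, was higher in ATM-KO cells under both treatments and had the largest genotype differences among the 5 genes tested. Its level was -1.12, -1.31 and -1.58 in irradiated ATM-KO samples, against -4.03, -4.15 and -4.36 in irradiated ATM-WT samples. In nonirradiated cells it was -3.47, -2.30 and -2.53 in ATM-KO samples, against -4.84, -4.84 and -4.53 in ATM-WT samples. The genotypes did not overlap under either treatment. In processed signal, the irradiated samples had 326, 207 and 172 units in ATM-KO cells and 46.5, 25.2 and 21.0 units in ATM-WT cells, and the nonirradiated ones 38.7, 93.6 and 84.8 units in ATM-KO cells and 21.3, 13.2 and 19.0 units in ATM-WT cells. The probe was well above background on all 12 arrays, with 1 spot on each. On the nonirradiated ATM-WT arrays 1, 2 and 3, the lowest level well above background was -6.11, -5.12 and -5.35, not far under Tslp.

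The genotype difference of Tslp was 2.84 ± 0.302 after irradiation, a 7.17-fold difference and the eighth highest of 18429 features (limma's adjusted p = 0.00385). Without irradiation it was 1.97 ± 0.302, a 3.91-fold difference at rank 117 (limma's adjusted p = 0.00805). It was the 1 cytokine called of 5 in each of these comparisons, where 0.206% of all features were called after irradiation and 0.857% without. With the replicate block, whose numbers were taken to pair the genotypes after irradiation only, 0.76% of features were called there. Tslp was again the 1 cytokine called. The median genotype difference of the 5 was 0.27 after irradiation and 0.14 without, against -0.01 and 0.04 for all features. On slide 2, where ATM-KO sample 1 and ATM-WT sample 3 shared a slide, Tslp differed by 3.24 after irradiation and by 1.05 without. With slide as a fixed block both calls were lost, at 2.58 after irradiation (adjusted p = 0.112) and 1.71 without (adjusted p = 0.264). The call without irradiation was also lost when nonirradiated ATM-KO sample 2 (1.73, adjusted p = 0.0634) or sample 3 (1.85, adjusted p = 0.0568) was left out, and with normexp background correction, which gave 0.63 (adjusted p = 0.199). The call after irradiation held in all 13 fits that left samples out, at 2.73 to 2.96, and with normexp at 1.44 (adjusted p = 0.00532). The normexp correction added an offset of 50 units to every spot, more than the Tslp signal of any ATM-WT sample. Such an offset by itself shrinks log2 differences of dim probes. The smaller normexp sizes therefore do not show how far Tslp depended on the background estimate.

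Within genotypes, Tslp was higher in the irradiated sample of all 6 pairs. Its irradiated and nonirradiated groups did not overlap in either genotype. The difference was 1.43 ± 0.302 in ATM-KO cells (2.70-fold) and 0.56 ± 0.302 in ATM-WT cells (1.47-fold), with limma's adjusted p = 0.179 and 0.937. With the replicate block the ATM-KO difference passed (adjusted p = 0.0435), and the ATM-WT difference did not (adjusted p = 0.416). The ATM-KO pairs were unequal: nonirradiated ATM-KO sample 1 was the lowest of its group, and its pair on slide 2 differed by 2.36, while the 2 pairs on slide 3 averaged 0.97. Without the number 1 samples the blocked difference was 0.97 (adjusted p = 0.130), in a fit that called no feature for irradiation in ATM-KO cells. The difference of the irradiation effects was 0.87 ± 0.427, with a 95% interval from -0.05 to 1.80, and was not called. In that comparison 0 of the 5 genes were called, and 0.00543% of all features were called without the block and 0.0217% with it. An unadjusted p under 0.05 was found for 0 of the 5 without the block and for 1, Il33, with it, against 0.901% and 3.3% of all features.

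Markers of epithelial cells and keratinocytes were detected in all groups. All 7 on the list were tested and none was called in any comparison. Of all features, 0.00543% to 0.857% were called without the block and 0.0217% to 2.26% with it. With so few calls, their absence does not show that the 7 were unchanged. The linear levels of the 7, in units of each array's 75th percentile, summed to 1.33 to 5.10 in irradiated ATM-KO, 1.08 to 4.57 in nonirradiated ATM-KO, 1.36 to 3.11 in irradiated ATM-WT and 1.08 to 2.40 in nonirradiated ATM-WT samples. Of the 7, 6 were well above background on all 12 arrays, and Epcam on 5 of 6 ATM-KO arrays and on 1 of 6 ATM-WT arrays. Their genotype differences ran in both directions, from -2.12 (Cdh1) to 1.11 (Epcam) after irradiation and from -1.39 (Cdh1) to 1.09 (Epcam) without. Their part in the Tslp difference was not tested, and in bulk RNA fewer cells of a type and less RNA per cell cannot be told apart.

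**Figure D2:**
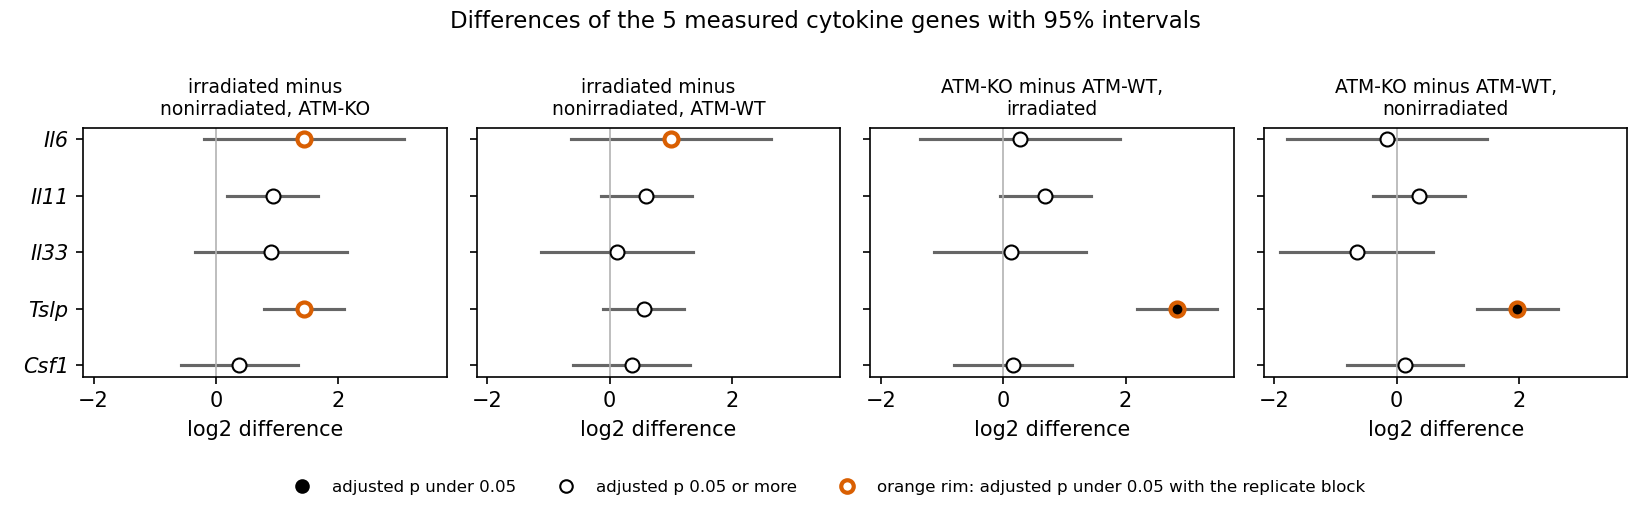
Log2 difference (horizontal axis) with its 95% interval from limma for the 5 cytokine genes tested, in 4 comparisons. Filled points passed the adjusted p threshold of 0.05 without the replicate block, and orange rims mark those that passed with it. Tslp is filled and rimmed in both genotype comparisons, at 2.84 and 1.97, though sample numbers did not pair the samples without irradiation. For irradiation, Il6 in both genotypes and Tslp in ATM-KO cells have a rim.

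Csf1, the main growth factor of macrophages, lay far above the array's 75th percentile in all samples. Its level was 4.26, 5.44 and 5.08 in irradiated ATM-KO samples, against 4.0, 4.77 and 4.85 in nonirradiated ATM-KO samples. In ATM-WT cells it was 3.88, 5.37 and 5.05 in irradiated samples, against 3.90, 4.87 and 4.44 in nonirradiated samples. Number 1 samples were the lowest in all 4 groups, and all comparisons overlapped. The irradiation difference was 0.38 ± 0.440 in ATM-KO cells and 0.36 ± 0.440 in ATM-WT cells, and the irradiated sample was the higher in 5 of 6 pairs. The genotype difference was 0.16 ± 0.440 after irradiation and 0.14 ± 0.440 without, with 95% intervals from -0.80 to 1.12 and from -0.82 to 1.09.

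Csf2, the granulocyte-macrophage factor, was well above background on 2 of 12 arrays, irradiated ATM-KO sample 1 and irradiated ATM-WT sample 3. Its probe had 10 spots, and an array counted when most spots in use were well above background. These were 7 of 10 and 5 of 9 spots on the 2 arrays. Irradiated ATM-KO sample 2, with 4 of 9, was not counted. The Csf2 level was -5.72, -5.72 and -6.16 in irradiated ATM-KO samples, against -6.03, -7.44 and -7.23 in nonirradiated ATM-KO samples. In ATM-WT cells it was -8.12, -7.62 and -5.00 in irradiated samples, against -8.13, -7.23 and -7.35 in nonirradiated samples. The groups overlapped in both genotypes. Csf3, the granulocyte factor, was well above background on irradiated ATM-KO sample 3 and irradiated ATM-WT sample 3. Its level was -7.23, -5.43 and -5.14 in irradiated ATM-KO samples, against -7.05, -5.36 and -5.48 in nonirradiated ATM-KO samples, and -7.09, -5.12 and -4.95 in irradiated ATM-WT samples, against -6.62, -5.57 and -6.77 in nonirradiated ATM-WT samples. The 2 arrays were both of irradiated cells for each gene, but no group had all 3 arrays above background, so neither gene was tested and no fold is given.

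**Figure D3:**
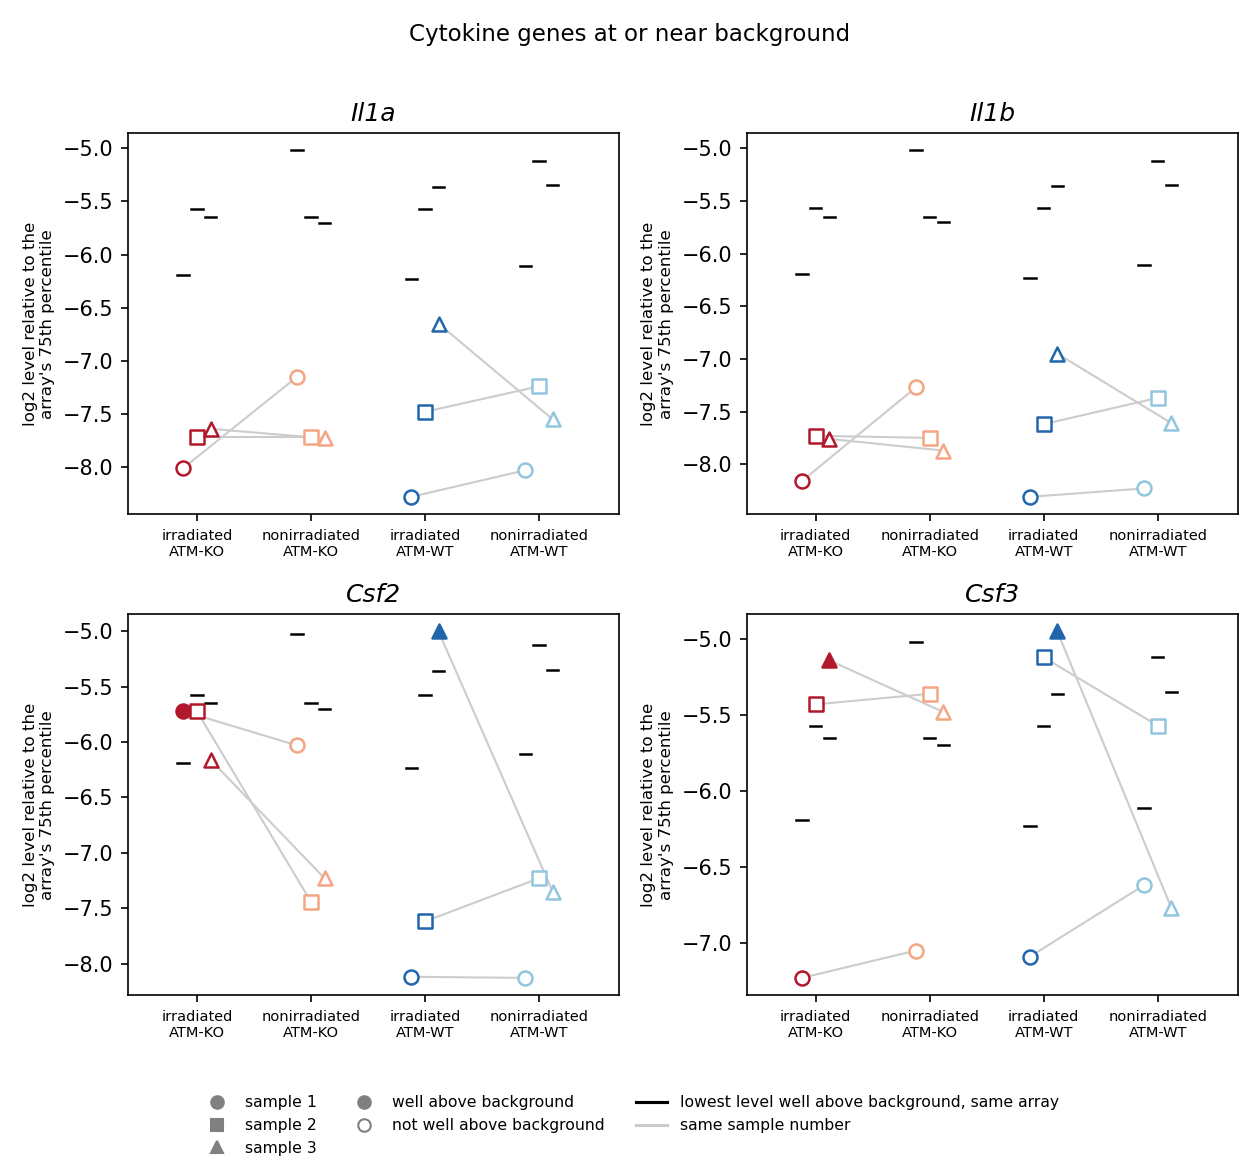
Log2 level relative to the array's 75th percentile (vertical axis) of the 4 cytokine genes that were not tested, by group, with filled points well above background, open points not, and a black tick at the lowest level well above background on the same array. Il1a and Il1b have no filled point on 12 arrays, and Csf2 and Csf3 have 2 each, all in irradiated groups.

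**Figure D4:**
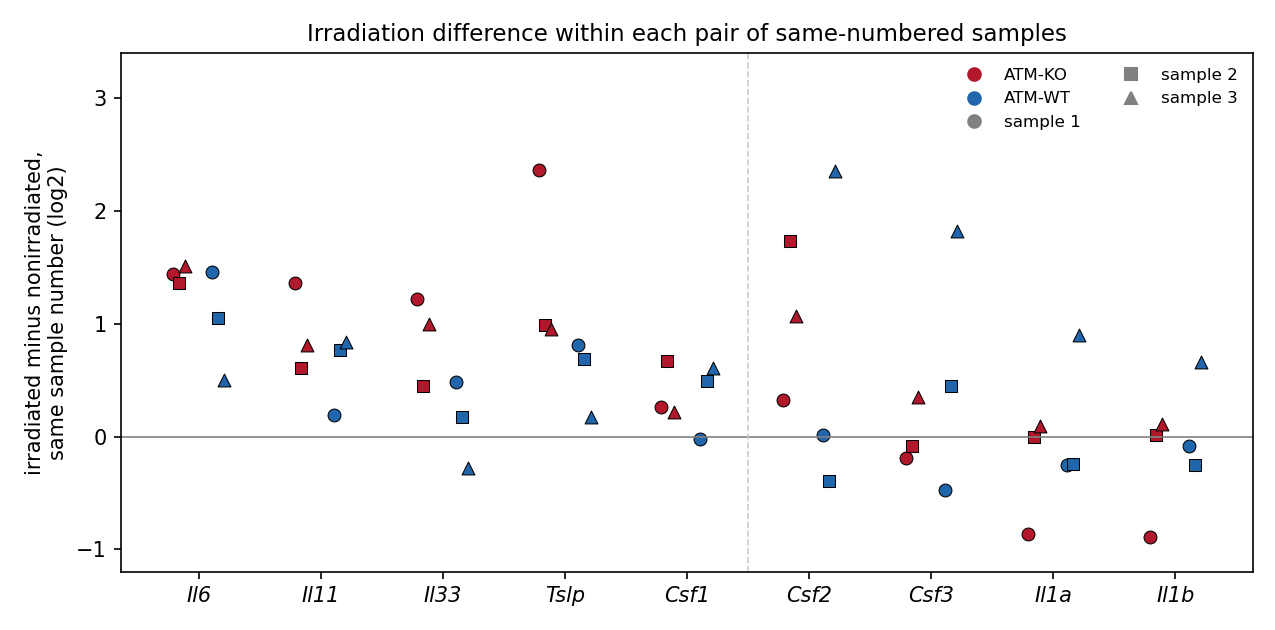
Irradiated minus nonirradiated log2 level (vertical axis) in each of 6 same-numbered pairs for the 9 cytokine genes with a probe, ATM-KO pairs left of ATM-WT pairs, with the genes right of the dashed line at or near background. All 6 points lie above 0 for Il6, Il11 and Tslp, and 5 of 6 for Il33 and Csf1, with no such count given for all features.

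Across the 12 arrays each tested cytokine was compared with all other named features by Pearson's r, given here as a description, since the arrays share groups, sample numbers and slides. Il6 was most like Pla1a (0.948), the chemokine gene Ccl7 (0.944) and the granzyme gene Gzme (0.930). Il11 was most like Loxl3 (0.934), a lysyl oxidase that crosslinks collagen, Crct1 (0.925) and Sdcbp2 (0.921). Il33 was most like the hyaluronan synthase gene Has2 (0.981), Eed (0.973), a Polycomb subunit, and Cyria (0.972). Tslp was most like the kinase gene Prkg2 (0.966), the phosphatase gene Ptpn22 (0.960) and the chemokine gene Ccl20 (0.957). Csf1 was most like Cbll1 (0.977), Trib1 (0.977) and Ip6k2 (0.976).

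Genes around the cytokines were read from 7 lists of 93 genes, of which 79 were tested: other gp130 ligands, IL-1 family and processing genes, receptors, other haematopoietic cytokines, Jak-Stat genes, NF-kB genes, and transcription and mRNA stability factors. Without the block, 0 of the 79 were called for irradiation in either genotype, with 8 in ATM-KO and 5 in ATM-WT cells at an unadjusted p under 0.05, where 7.93% and 6.46% of all features were. Nor was any called for the difference of these effects or for genotype after irradiation, with 0 and 7 at an unadjusted p under 0.05, against 0.901% and 5.23% of all features. In nonirradiated cells 1 was called (0.857% of all features), Csf1r, which was lower in ATM-KO cells. With the replicate block, 2 were higher after irradiation in ATM-KO cells (2.05% of all features called), 3 were higher in ATM-WT cells (2.26%), 0 were called for the difference of these effects (0.0217%), and for genotype after irradiation 2 were higher and 1 was lower in ATM-KO cells (0.76%).

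Among receptors, Il1rl1, which encodes the IL-33 receptor ST2, had levels of 3.98, 4.0 and 3.83 in irradiated ATM-KO samples, against 2.08, 1.83 and 2.19 in irradiated ATM-WT samples. In nonirradiated cells it was 1.46, 3.21 and 2.92 in ATM-KO samples, against 0.82, 1.30 and 1.39 in ATM-WT samples. No 2 of these groups overlapped within a genotype or within a treatment. The genotype difference was 1.90 ± 0.385 after irradiation, with limma's adjusted p = 0.0903, or 0.0445 with the replicate block, and 1.36 ± 0.385 without irradiation (adjusted p = 0.20). The irradiation difference was 1.41 ± 0.385 in ATM-KO cells and 0.86 ± 0.385 in ATM-WT cells, and neither passed. On slide 2 the genotypes differed by 1.79 after irradiation and by 0.07 without. On its other probes the irradiated means were 1.64 and -1.34 in ATM-KO cells and -0.34 and -3.58 in ATM-WT cells, the same direction.

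Csf1r, the receptor of CSF1 and a gene of macrophages, had levels of -4.62, -4.05 and -4.37 in irradiated ATM-KO samples, against -2.50, -2.40 and -2.62 in irradiated ATM-WT samples. Without irradiation they were -3.99, -4.53 and -4.52 in ATM-KO samples, against -1.14, -2.03 and -2.88 in ATM-WT samples. The genotypes did not overlap, and the difference was -1.84 ± 0.374 after irradiation (limma's adjusted p = 0.0923, or 0.0461 with the replicate block) and -2.33 ± 0.374 without (adjusted p = 0.0107). On slide 2 it was -2.0 and -1.11. Macrophage markers moved with it: of the 12 with a probe of 14 listed, 4 were measured above background on each of the 6 ATM-KO arrays, against 10 on each of the 6 ATM-WT arrays, and their summed level was 0.695 to 0.876 in irradiated ATM-KO, 0.563 to 1.02 in nonirradiated ATM-KO, 3.07 to 4.87 in irradiated ATM-WT and 4.25 to 7.40 in nonirradiated ATM-WT samples. The 4 measured on all 12 arrays, Cd14, Lyz2, C1qb and Fcer1g, had genotype differences of -1.29, -2.14, -1.22 and -2.26 after irradiation and of -1.67, -2.59, -1.55 and -3.19 without. Ptprc, Itgam and Laptm5 were well above background on none of the 6 ATM-KO arrays. Laptm5 was so on all 6 ATM-WT arrays, but Ptprc and Itgam on only 2 of them each. The part of macrophages in the Csf1r difference, or in any cytokine value, was not tested.

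The other receptor chains gave no call without the block. Il1r1, which encodes the signalling receptor of IL-1, differed between genotypes by -0.82 ± 0.416 after irradiation and -1.30 ± 0.416 without (adjusted p = 0.299), and the second passed with the block (adjusted p = 0.0425, with 1.71% of all features called), in a comparison whose sample numbers did not pair the samples. Il6st, which encodes gp130, differed between genotypes by -0.49 ± 0.250 after irradiation and -0.77 ± 0.250 without (adjusted p = 1.0 and 0.316). The TSLP receptor chain Crlf2 differed between genotypes by 0.06 ± 0.361 after irradiation and 0.21 ± 0.361 without. Il1rn, which encodes the IL-1 receptor antagonist, differed by 1.11 ± 0.814 and 0.89 ± 0.814 in the same comparisons. Il34, which encodes the other ligand of CSF1R, differed by 0.45 ± 0.470 and 0.55 ± 0.470.

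Among regulators, Fosl1, which encodes the AP-1 subunit FRA-1, was higher in the irradiated sample of all 6 pairs, by 1.14 to 1.55. Its levels were -0.64, 0.79 and 0.13 in irradiated ATM-KO samples, against -1.82, -0.53 and -1.0 in nonirradiated ATM-KO samples, and -2.20, -0.77 and -0.93 in irradiated ATM-WT samples, against -3.41, -2.14 and -2.49 in nonirradiated ATM-WT samples. The irradiation difference was 1.21 in ATM-KO cells and 1.38 in ATM-WT cells, with limma's adjusted p = 0.0179 and 0.00417 with the replicate block, and 0.572 and 0.547 without it. For genotype after irradiation Fosl1 was higher in ATM-KO cells by 1.39 (adjusted p = 0.00633 with the block, 0.596 without).

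Il18bp, which encodes a secreted inhibitor of IL-18, differed with irradiation by 1.28 in ATM-KO cells and 1.34 in ATM-WT cells, and passed with the block (limma's adjusted p = 0.0311 and 0.0213). Il7, whose receptor subunit TSLP shares, was the other of the 3 calls in ATM-WT cells. It was well above background on 3 of 3 irradiated and 2 of 3 nonirradiated ATM-KO arrays, and on 2 of 3 irradiated and 1 of 3 nonirradiated ATM-WT arrays, so that call is set against values at background and no difference is given. Its other probe was well above background on none of the 12 arrays.

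Of the NF-kB list, 20 of 22 genes were tested and none was called in any comparison with or without the block, and of the 11 Jak-Stat genes, all tested, none was called either. Nfkbia, the NF-kB target that encodes its inhibitor, differed with irradiation by -0.03 ± 0.487 in ATM-KO cells and 0.09 ± 0.487 in ATM-WT cells. Socs3, the feedback inhibitor induced by gp130 signalling, differed by -0.40 ± 0.607 and -0.01 ± 0.607. Cebpb, which encodes C/EBPbeta, differed by 0.26 ± 0.435 and 0.18 ± 0.435. In ATM-KO cells the 95% intervals of these 3 genes reached up to 1.03, 0.92 and 1.21, so the missing calls do not show that they were unchanged.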

How the data were processed

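RNA from 12 samples in 4 groups, taken from the labels, was measured on single-colour Agilent arrays (mm9 in the file headers). Per the file headers, intensity per spot in the deposited scanner files had been background-subtracted and detrended within each array. The headers name Feature Extraction 10.7.1.1 and the submitters' processing notes name version 11.0. A second deposited table holds log2 values. Set against the scanner files, it followed the same scaling and direction with each probe centred on its median over the arrays (largest absolute median 5e-04), and it served as an alternative.

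From the intensity, log2 processed signal minus each array's 75th percentile was computed, leaving out control spots and outlier-flagged spots unless all spots of a probe were flagged, and spots of a probe were averaged. Of 41174 probes, 25097 were named through RefSeq accessions, giving 17305 genes, and a gene was represented by its brightest probe on average. A probe counted as well above background on an array when most of its spots in use were flagged so. Testing required that all 3 arrays of 1 or more groups were well above background. All 12 arrays entered 1 model of group means in limma 3.58.1 (R 4.3.3, with the package data.table, version 1.17.8), moderated by eBayes, with p-values adjusted by Benjamini-Hochberg over 18429 features at 0.05, with 8 residual and 4.13 prior degrees of freedom. The procedure was tested on simulated data with independent noise and large added differences. That simulation held no effects of sample number or slide, so it does not cover them.

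Deviations of same-numbered samples from the group means correlated at 0.269 to 0.509 for irradiation in ATM-KO cells, 0.481 to 0.852 in ATM-WT cells and 0.217 to 0.628 for genotype after irradiation, and at -0.218 to 0.178 for genotype without irradiation, so the numbers were taken to pair the samples in the first 3. Even there, another number correlated better for number 2 in ATM-KO cells (0.284 against 0.269). The same held for number 3 in genotype after irradiation (0.386 against 0.217). The replicate block for irradiation was the pair of same-numbered samples of a genotype. For genotype it was the sample number, as 1 effect per number over all 12 arrays. Genes named are the cytokines, Atm, Cdkn1a, fixed receptor and regulator genes, the called members of the lists with the smallest adjusted p, and the 3 features most like each tested cytokine. The cytokines and the lists were chosen with earlier results of these data known. Alternatives were normexp background correction with an offset of 50 units, quantile scaling, no filter, the deposited matrix, slide as a block, the replicate block and leaving out samples.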

Additional observations from a re-analysis of the deposited data

Results flagged for a closer look

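Csf2 and Csf3, which no comparison tested because no group had all 3 arrays above background, were each well above background on 2 of 6 irradiated arrays and on 0 of 6 nonirradiated arrays. For Csf2 these were irradiated ATM-KO sample 1 and irradiated ATM-WT sample 3, and for Csf3 irradiated ATM-KO sample 3 and irradiated ATM-WT sample 3. The Csf2 count rests on a majority of spots, with 5 of 9 on irradiated ATM-WT sample 3. On irradiated ATM-KO sample 2 it missed with 4 of 9.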

How the results depend on the processing

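The Tslp difference between genotypes stayed above 0 under every alternative run, from 1.44 to 2.96 after irradiation and from 0.63 to 2.32 without. It was called after irradiation under all of them except slide as a fixed block (2.58). Without irradiation the call was lost with normexp (0.63), with slide as a fixed block (1.71) and without nonirradiated ATM-KO sample 2 (1.73) or 3 (1.85). So 0 of the 5 cytokines were called without irradiation with normexp or slide as a fixed block, and 0 after irradiation with that block. The irradiation differences of Il6, Il11, Tslp and Csf1 stayed above 0 in both genotypes under all alternatives, some of them barely. In that order, the lowest were 0.25, 0.38, 0.03 and 0.06 in ATM-WT cells and 0.82, 0.71, 0.83 and 0.11 in ATM-KO cells. With the replicate block 2 cytokines were called for irradiation in ATM-KO cells and 1 in ATM-WT cells, and of the listed pathway genes 2 and 3, with 3 for genotype after irradiation. For genotype without irradiation, where numbers did not pair the samples, the block gave 5 pathway genes (Il18bp and Fosl1 higher, Casp1, Il1r1 and Csf1r lower) and 315 features against 158. Calls among all features with the replicate block were 378 for irradiation in ATM-KO cells, 417 in ATM-WT cells, 4 for the difference of these effects and 140 for genotype after irradiation, against 1, 82, 1 and 38 without it. The blocked fit without the number 1 samples, chosen after seeing the data, gave 0, 63, 0 and 1234, and 1858 for genotype without irradiation. In it no slide held both genotypes, so genotype and slide cannot be told apart in its genotype counts.

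For irradiation in ATM-KO cells normexp, quantile scaling and no filter gave 0 features each, and for the difference of the effects 3, 2 and 0. Slide as a fixed block gave 139 features for irradiation in ATM-WT cells, 0 for the difference, 3 for genotype after irradiation and 34 without. No filter gave 20 for genotype after irradiation and 103 without, and normexp also gave 103 without. Uncalled genotype differences changed sign with slide as a fixed block: Csf1 after irradiation (-0.60) and without (-0.62), Il6 without (0.22) and Il33 without (0.50). Csf1 without irradiation was -0.02 with slide as a random block. The blocked fit without number 1 samples turned the ATM-WT irradiation difference of Il33 (-0.06), the differences of the effects of Il11 (-0.09) and Csf1 (-0.11), and Il6 for genotype after irradiation (-0.83).

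Over the 13 fits that left samples out, features called ran from 0 to 2 for irradiation in ATM-KO cells, 48 to 155 in ATM-WT cells, 0 to 2 for the difference, 3 to 1049 for genotype after irradiation and 57 to 1593 without, the highest genotype counts without the number 1 samples. Those highest counts come from samples with no slide shared by both genotypes. Cytokines called for genotype without irradiation ran from 0 to 2. Directions changed for the ATM-WT irradiation difference of Il33 (-0.36 to 0.42), for the difference of the effects of Il6 (-0.14 to 1.19), Il11 (-0.09 to 0.58) and Csf1 (-0.42 to 0.35), for genotype after irradiation of Il6 (-0.83 to 0.70), Il33 (-0.45 to 0.60) and Csf1 (-0.28 to 0.49), and for genotype without irradiation of Il6 (-1.49 to 0.35) and Csf1 (-0.12 to 0.41). With no filter, no gene among Il1a, Il1b, Csf2 and Csf3 was called. Signal near background limits these 4 genes.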
